A study of Mus musculus with 8 samples.

Results

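The antigen presentation genes described here are 10 mouse genes, taken by symbol: H2-K1, H2-D1, B2m, Tap1, Tap2, Tapbp, Psmb8, Psmb9, Nlrc5 and Cd74. Each symbol was found once among the 45777 genes listed in the deposited count tables. They were followed through 8 bulk RNA-seq libraries from 4 lines of mouse organoid, tumour epithelium grown in 3 dimensions, labelled as hepatocellular carcinoma (HCC) on a background of MASH, a steatohepatitis that accompanies metabolic disease. In parental SNU-6622 all 9 genes of the class I pathway were higher than in the other 3 parental lines. Among the libraries of SNU-6624 and SNU-6625, in which the groups could be tested, none of the 10 genes passed the adjusted threshold of edgeR in any of 3 comparisons, and DESeq2 called 1 of them, B2m, in both comparisons with the lenvatinib libraries.

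The resistant group held 1 library each of a lenvatinib-resistant organoid of lines SNU-6624 and SNU-6625 and is labelled as control under treatment. The lenvatinib group held 1 library each of the same 2 lines given lenvatinib, a kinase inhibitor that blocks the VEGF and FGF receptors among others and is used against liver cancer. The parental group held 1 untreated library each of these 2 lines and of SNU-6621 and SNU-6622. All 8 libraries carry the genotype label WT. The labels state neither how much lenvatinib was given nor for how long, nor the strain, age or sex of the mice, nor whether a resistant culture was 1 clone. No label tells whether the libraries of a line came from separate cultures or animals, so p-values measure only the spread between these libraries, which may be technical.

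Class I molecules show fragments of a cell's own proteins to CD8 T cells. The proteasome cuts proteins into peptides, the TAP transporter carries them into the endoplasmic reticulum, and tapasin (Tapbp) holds the transporter beside an empty class I molecule, made of a heavy chain (H2-K1 or H2-D1) and the light chain beta-2-microglobulin (B2m). Interferon raises most of these genes, in part through IRF1 and NLRC5, the second of which acts on class I promoters as CIITA does on class II promoters. Cd74 encodes the invariant chain of class II molecules, made mainly by professional antigen-presenting cells.

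The total ran from 49.0 to 61.0 M (megacounts) per library. Levels are given as CPM (counts per megacount of the library) scaled by TMM, a method that corrects library totals for the genes that dominate them, and a floor of 3 counts was 0.0503 to 0.0605 CPM on this scale. Reads without molecular identifiers are not independent molecules, so this floor and the intervals of shares of counts below hold for counting error alone. The intervals of fold changes come from the edgeR fit and take in the spread between libraries. Leukocyte transcripts, which could bring class I and class II RNA of their own, were scarce: 18 of 26 marker genes, among them Ptprc (CD45), had 0 counts in every library. The summed level of the leukocyte markers was 23.64 to 110.3 CPM in resistant, 2.85 to 3.037 CPM in lenvatinib and 21.04 to 122.5 CPM in parental libraries. Ly6g made up most of it, and without that gene the sums were 2.283 to 9.412, 0.5695 to 0.6241 and 0.9879 to 3.803 CPM in resistant, lenvatinib and parental libraries. Endothelial and stromal markers summed to at most 1.129 CPM in any library. The hepatocyte marker Alb had 0 counts throughout and 10 hepatocyte markers summed to 0.2046 to 0.6889 CPM in resistant, 0.7248 to 0.759 CPM in lenvatinib and 1.626 to 46.06 CPM in parental libraries. Most of the highest parental sum was Cyp2e1, at 43.73 CPM in SNU-6621. The origin of the cells was not tested. The biliary and progenitor list was abundant, at 19220 to 23290 CPM in resistant, 4963 to 5259 CPM in lenvatinib and 11260 to 14460 CPM in parental libraries. It includes Krt8 and Krt18, keratins of simple epithelia that are not particular to biliary cells. Over the 8 libraries these 2 ran from 884.5 to 6385 CPM and from 1085 to 4732 CPM. In lenvatinib against parental 2 of the 10 genes of this list fell, Krt19 and Spp1 (log2 fold changes -3.25 and -3.10, adjusted p = 0.0371 and 0.0479 by edgeR). In resistant against lenvatinib 4 of 10 rose, Krt19, Krt7, Krt8 and Spp1. By edgeR 5.78% and 6.23% of all genes tested were called in these 2 comparisons. Spp1 was not called without line as a term (edgeR adjusted p = 0.0512). In bulk libraries fewer cells of a type and less RNA per cell cannot be told apart, and the part of these differences in the results below was not tested.

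Among the parental lines, SNU-6622 had the highest level of all 10 genes, where 20.6% of the 17542 genes above the filter on low counts had their highest level in that line. It stood at least 2-fold above each other parental line for 7 of the 10 (H2-K1, H2-D1, B2m, Tap1, Psmb8, Psmb9 and Nlrc5), against 1.62% of all genes above the filter. With 1 library a line these differences have no replicate check and are given as values. The summed leukocyte markers were also highest in SNU-6622 among the parental lines, at 122.5 CPM against 21.04, 51.5 and 73.2 CPM in SNU-6621, SNU-6624 and SNU-6625. Ly6g alone was at 121 CPM in SNU-6622, and Ptprc had 0 counts. This order rests on Ly6g: without it the parental sums were 0.9879 to 3.803 CPM, with SNU-6621 and not SNU-6622 highest.

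The heavy chains H2-K1 and H2-D1 form the groove that holds the peptide. H2-K1 had 76877 counts in SNU-6622, against 17124 in SNU-6621, 20803 in SNU-6624 and 26965 in SNU-6625. Scaled, this was 1345 CPM in SNU-6622 against 316, 349 and 544 CPM in the other 3, a ratio of 3.34 to their mean. H2-D1 had 69903 counts in SNU-6622 and 16613, 26489 and 23870 counts in the other lines in the same order, or 1223 CPM against 307, 444 and 481 CPM, a ratio of 2.98. For both heavy chains the 3 lower lines lay within a range narrower than their gap to SNU-6622.

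B2m, the light chain shared by all class I molecules, had 57508 counts in SNU-6622, against 13780, 10728 and 11018 counts in SNU-6621, SNU-6624 and SNU-6625. This was 1006 CPM against 254, 179.8 and 222 CPM, a ratio of 4.60 to the mean of the other lines. Tap1, which with Tap2 forms the peptide pump, had 108.8 CPM in SNU-6622 and 36.5, 40.3 and 45.0 CPM in the other lines. Tap2 had 42.9 CPM in SNU-6622 and 18.4, 15.9 and 26.6 CPM in the other lines. Tapbp had 235 CPM in SNU-6622 and 152.6, 103.5 and 101.3 CPM in the other lines, the smallest ratio to the mean of the others among the 9 class I pathway genes at 1.97.

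Psmb8 and Psmb9 encode the immunoproteasome subunits that take the places of the constitutive subunits Psmb5 and Psmb6, and the lines kept 1 order for both but lay further apart in Psmb8. Psmb8 had 1479 counts in SNU-6622 and 546 in SNU-6621, against 34 and 67 in SNU-6624 and SNU-6625. In CPM this was 25.9 in SNU-6622, and 10.1, 0.570 and 1.35 in SNU-6621, SNU-6624 and SNU-6625. Psmb8 in SNU-6624 was at least 2-fold under each other line, as were 1.77% of all genes there. Psmb9 varied less, with 25.8 CPM in SNU-6622 against 11.2, 6.02 and 6.81 CPM in the other lines. Ratios of counts within a library, which no scaling can change, are not corrected for gene length. They serve to compare libraries and do not give the relative abundance of the 2 genes. Psmb8 over Psmb5 was 0.398 in SNU-6622 and 0.148, 0.00896 and 0.0220 in SNU-6621, SNU-6624 and SNU-6625. Psmb9 over Psmb6 was 0.352 in SNU-6622 and 0.134, 0.0822 and 0.101 in the others. Psmb8 over Psmb9 was close to 1 in SNU-6622 (1.003) and SNU-6621 (0.901), and 0.0947 and 0.198 in SNU-6624 and SNU-6625. The third immunoproteasome subunit, Psmb10, followed the same split over its counterpart Psmb7, at 0.2697 in SNU-6622, 0.262 in SNU-6621, 0.0595 in SNU-6624 and 0.0835 in SNU-6625. All 14 constitutive core genes together differed little between these libraries, at 1147 CPM in SNU-6622 and 1147 to 1194 CPM in the other 3.

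Nlrc5, the class I transactivator, showed the widest spread. It had 693 counts in SNU-6622 and 4, 25 and 20 counts in SNU-6621, SNU-6624 and SNU-6625, or 12.1 CPM against 0.0738, 0.419 and 0.403 CPM, a ratio of 40.6 to the mean of the others. Its level in SNU-6621 was at least 2-fold under each other line, as for 4.86% of all genes. H2-K1, H2-D1 and B2m in that library were at 316, 307 and 254 CPM. Cd74 was nearly absent from the parental lines, with 8 counts in SNU-6622, 2 in SNU-6621 and 0 in SNU-6624 and SNU-6625.

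**Figure D1:**
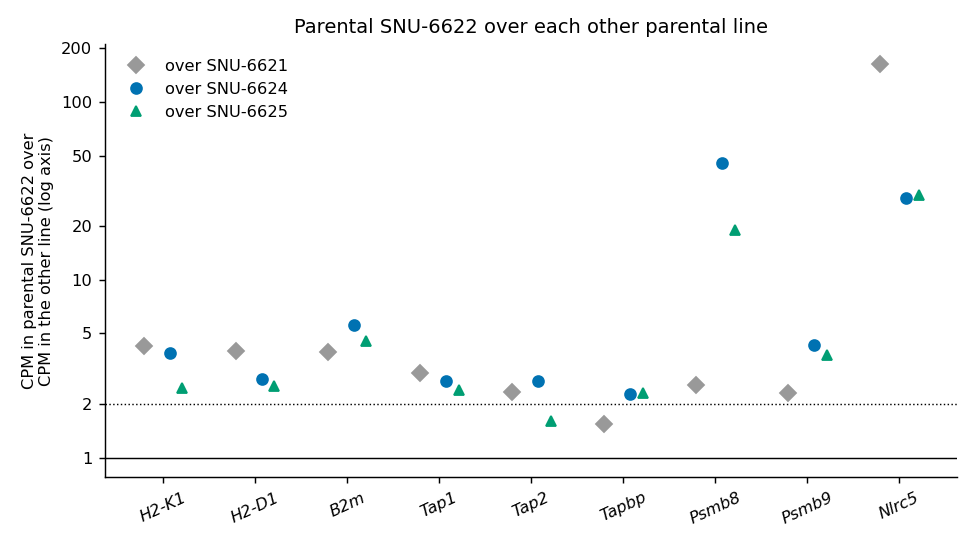
Level in parental SNU-6622 divided by the level in each other parental line (log axis), 1 point per line, for the 9 class I pathway genes. The solid line marks equal levels and the dotted line a ratio of 2. All points lie above 1, with Tapbp over SNU-6621 lowest (1.54) and Nlrc5 over SNU-6621 highest (164.2).

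Per kilobase of exon, which allows genes to be set against each other, the mean level over the 4 parental lines was highest for B2m, at 483 ± 459 CPM per kb (SD, n = 4 lines). H2-K1 followed at 386 ± 291 and H2-D1 at 292 ± 197 CPM per kb. Tapbp was at 51.1 ± 21.6, Tap1 at 19.5 ± 11.6, Psmb9 at 9.21 ± 6.79, Tap2 at 7.54 ± 3.54 and Psmb8 at 5.82 ± 7.22 CPM per kb. Nlrc5 was at 0.401 ± 0.729 and Cd74 at 0.0312 ± 0.0467 CPM per kb. The SD reflects SNU-6622 above all, and neighbours among the first 3, and among Psmb9, Tap2 and Psmb8, did not differ beyond it. The constitutive subunits Psmb6, Psmb5 and Psmb7 lay above Psmb8 and Psmb9, at 93.1 ± 8.47, 71.7 ± 3.14 and 70.6 ± 7.74 CPM per kb.

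Of the 10 genes, 7 lie on chromosome 17 in the mouse MHC. In build mm10, Tapbp spans chr17:33919478-33929290, H2-K1 chr17:33996012-34000619 on the minus strand, Psmb9 chr17:34182030-34187330 on the minus strand, Tap1 chr17:34187556-34197225, Psmb8 chr17:34198195-34201454, Tap2 chr17:34204479-34216321 and H2-D1 chr17:35263094-35267497. B2m spans chr2:122147687-122153082 and Nlrc5 chr8:94434335-94527272. RefSeq sets the H2-K1 promoter window below on a transcript start inside the span of that gene. Psmb9 and Tap1 stand back to back with starts 226 bases apart, and Psmb8 begins 970 bases after the end of Tap1. Whether counting used the strand is not given in the sources used here. Among genes that RefSeq sets over these, Patl2 over B2m and Gm51584 over Nlrc5 had 0 counts, and Gm19412 over Tapbp and 9330175E14Rik over Nlrc5 had at most 17 and 10 counts in a library. Mir7072 over Nlrc5 and Mir5107 over Cd74 had at most 3 counts each.

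Promoter sequences of 7 of the 10 genes were taken from RefSeq for GRCm38.p6 (the primary assembly of mm10), as 250 bases before to 50 after a gene's start. Those of Tap2, Nlrc5 and Cd74 were not examined. Of the 7, 5 are shown: those of both heavy chains, the light chain, Tap1 and Psmb8, each at least 2-fold higher in SNU-6622 than in each other parental line. Capitals mark letters matched on either strand: an NF-kB motif (GGGA and CC with any 4 bases between), an interferon response motif (2 runs of GAAA with any 2 bases between) and a shorter form of it (GAA and GAAA with any 2 bases between, added after the letters were seen), and the Y box (GATTGG) and part of the X2 box (TGACG, also added after the letters were seen) of the class I enhanceosome on which NLRC5 acts.
H2-K1: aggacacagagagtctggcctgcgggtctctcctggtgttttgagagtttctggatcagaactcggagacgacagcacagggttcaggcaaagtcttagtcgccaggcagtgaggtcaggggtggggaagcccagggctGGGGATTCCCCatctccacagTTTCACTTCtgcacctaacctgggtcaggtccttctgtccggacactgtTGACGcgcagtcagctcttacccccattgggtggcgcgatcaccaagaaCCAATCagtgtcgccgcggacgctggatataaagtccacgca
H2-D1: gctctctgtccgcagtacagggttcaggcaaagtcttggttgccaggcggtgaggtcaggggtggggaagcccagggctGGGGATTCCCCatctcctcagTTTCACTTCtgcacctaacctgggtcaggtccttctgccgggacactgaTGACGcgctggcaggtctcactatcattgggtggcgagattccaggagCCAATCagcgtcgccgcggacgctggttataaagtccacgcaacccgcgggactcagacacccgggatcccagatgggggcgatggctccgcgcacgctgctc
B2m: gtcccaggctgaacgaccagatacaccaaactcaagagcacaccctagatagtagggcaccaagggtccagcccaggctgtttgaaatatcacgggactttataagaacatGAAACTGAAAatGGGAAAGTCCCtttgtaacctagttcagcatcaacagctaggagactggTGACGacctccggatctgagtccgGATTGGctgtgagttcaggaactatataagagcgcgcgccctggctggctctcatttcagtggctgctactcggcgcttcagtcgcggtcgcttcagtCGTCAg
Tap1: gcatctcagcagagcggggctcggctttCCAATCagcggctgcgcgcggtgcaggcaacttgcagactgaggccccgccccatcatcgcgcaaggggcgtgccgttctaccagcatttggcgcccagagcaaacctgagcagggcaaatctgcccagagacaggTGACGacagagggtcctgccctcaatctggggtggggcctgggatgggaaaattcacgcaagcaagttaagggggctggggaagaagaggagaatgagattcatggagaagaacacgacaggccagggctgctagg
Psmb8: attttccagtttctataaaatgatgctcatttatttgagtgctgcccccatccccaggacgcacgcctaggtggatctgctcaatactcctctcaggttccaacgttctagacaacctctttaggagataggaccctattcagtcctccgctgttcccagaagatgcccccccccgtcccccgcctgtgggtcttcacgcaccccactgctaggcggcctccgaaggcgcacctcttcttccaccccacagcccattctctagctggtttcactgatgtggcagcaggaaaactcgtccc
Read 5′ to 3′, H2-K1 (chr17:34000298-34000597, minus strand) and H2-D1 (chr17:35262844-35263143, plus strand) held the same motifs in the same order and nearly the same spacing. In both genes the interferon response motif began 21 bases after the NF-kB motif and the X2 letters 49 bases after that. The Y box letters followed 49 bases later in H2-K1 and 48 bases later in H2-D1. B2m (chr2:122147437-122147736, plus strand) held the full interferon response motif directly before its NF-kB motif, then the X2 letters and the Y box. Tap1 (chr17:34187306-34187605, plus strand) held the X2 and Y box letters far apart, and its window overlaps that of Psmb9, which holds the same letters on the other strand. Psmb8 (chr17:34197945-34198244, plus strand) held none of these and is shown in lower case throughout.

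Of the 7 promoters, 5 held the Y box (H2-K1, H2-D1, B2m, Tap1 and Psmb9) and the same 5 held the X2 letters, against 16.1% and 20.8% of 32851 promoters of the table. The NF-kB motif was in 3 of 7 against 20.7%, the full interferon response motif in 1 of 7 against 3.44%, and the shorter one in 2 of 7 against 7.52%. The full X2 box (TGACGT) was in 0 of 7 against 7.51%. In the H2-K1, H2-D1 and B2m windows the NF-kB letters match on both strands at overlapping positions and are counted once per gene. The X2 letters and the shorter interferon response motif were chosen after these promoters were read, so their counts cannot be weighed against the shares of all promoters. A match is a description of letters, and the counts are not independent, since H2-K1 and H2-D1 are near copies and Tap1 and Psmb9 share a window.

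Lenvatinib against parental was compared in SNU-6624 and SNU-6625 with edgeR's quasi-likelihood test on all 6 libraries of these lines, with line as a term. None of the 10 genes was called (Benjamini-Hochberg adjusted p under 0.05), where 5.78% of the 17038 genes tested were. At an unadjusted p under 0.05 edgeR passed 1 of the 10, B2m, DESeq2 called that gene, and limma-voom called 0 of 10. B2m had 117.5 and 155.6 CPM in lenvatinib SNU-6624 and SNU-6625, against 179.8 and 222 CPM in parental SNU-6624 and SNU-6625. Both lenvatinib libraries thus lay below both parental libraries, and the level was 34.7% and 29.9% lower within the lines. The fitted log2 fold change was -0.57 (SE 0.16, 95% interval -0.98 to -0.15), with an unadjusted p of 0.0178 by edgeR and an adjusted p of 0.0976. At that unadjusted threshold 31.8% of all genes passed. B2m was called in 4 of 16 alternative fits, among them DESeq2 (adjusted p = 0.0192) and a fit to only the 4 libraries compared (edgeR adjusted p = 0.00613), and the adjusted p ranged from 0.00613 to 0.561 over the 16. Without resistant SNU-6624 or without resistant SNU-6625, B2m (edgeR adjusted p = 0.00719 and 0.00832), H2-D1 and Tapbp were called, and Cd74 was called without resistant SNU-6624 (edgeR adjusted p = 0.0323), on 12 counts in 1 library. Without any 1 of the 4 lenvatinib and parental libraries no gene was called at all, those outside the set described below included.

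Neither heavy chain was lower in the lenvatinib library of either line, and their difference from B2m was not tested. H2-K1 had 382 and 592 CPM in lenvatinib SNU-6624 and SNU-6625 and 349 and 544 CPM in parental SNU-6624 and SNU-6625, 1.09-fold higher within each line, with a fitted log2 fold change of 0.12 (SE 0.22). H2-D1 had 649 and 584 CPM in the lenvatinib libraries and 444 and 481 CPM in the parental libraries, a log2 fold change of 0.43 (SE 0.41, 95% interval -0.67 to 1.53) that was -0.05 without lenvatinib SNU-6624. The ratio of B2m to H2-K1 counts, not corrected for gene length, was 0.308 and 0.263 in lenvatinib SNU-6624 and SNU-6625. It was 0.516 and 0.409 for the same lines as parental cultures and 0.805 and 0.748 in parental SNU-6621 and SNU-6622.

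The loading genes were not called either. Tapbp had 143.5 and 158.1 CPM in lenvatinib SNU-6624 and SNU-6625, against 103.5 and 101.3 CPM in parental SNU-6624 and SNU-6625, a log2 fold change of 0.54 (SE 0.42). Tap1 had 35.1 and 41.9 CPM in lenvatinib and 40.3 and 45.0 CPM in parental libraries, a log2 fold change of -0.15 (SE 0.14). Tap2 had 16.9 and 24.9 CPM in lenvatinib and 15.9 and 26.6 CPM in parental libraries, with opposite signs in the 2 lines and a fitted log2 fold change of 0.00 (SE 0.20). H2-D1, Tapbp and Nlrc5 were higher and B2m was lower with no overlap between the groups, where 36.2% and 36% of all genes did so in the same directions.

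Psmb8, the immunoproteasome subunit, took opposite directions in the 2 lines. It had 11 and 90 counts in lenvatinib SNU-6624 and SNU-6625 and 34 and 67 counts in parental libraries of the same lines, or 0.190 and 1.52 CPM against 0.570 and 1.35 CPM. Its fitted log2 fold change turned to 0.14 without lenvatinib SNU-6624. Psmb9 had 5.94 and 8.80 CPM in lenvatinib and 6.02 and 6.81 CPM in parental libraries. Nlrc5 stayed low, with 43 and 62 counts in lenvatinib and 25 and 20 counts in parental libraries, or 0.742 and 1.05 CPM against 0.419 and 0.403 CPM, a log2 fold change of 1.05 (SE 0.67, adjusted p = 0.338 by edgeR). Cd74 had 12 counts in lenvatinib SNU-6624 and 0 counts in lenvatinib SNU-6625 and in both parental libraries. The median log2 fold change of the 10 genes was 0.15, against -0.01 over all genes tested, and was 0.12 (n = 9) without Cd74, whose fitted value rests on libraries at 0.

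**Figure D2:**
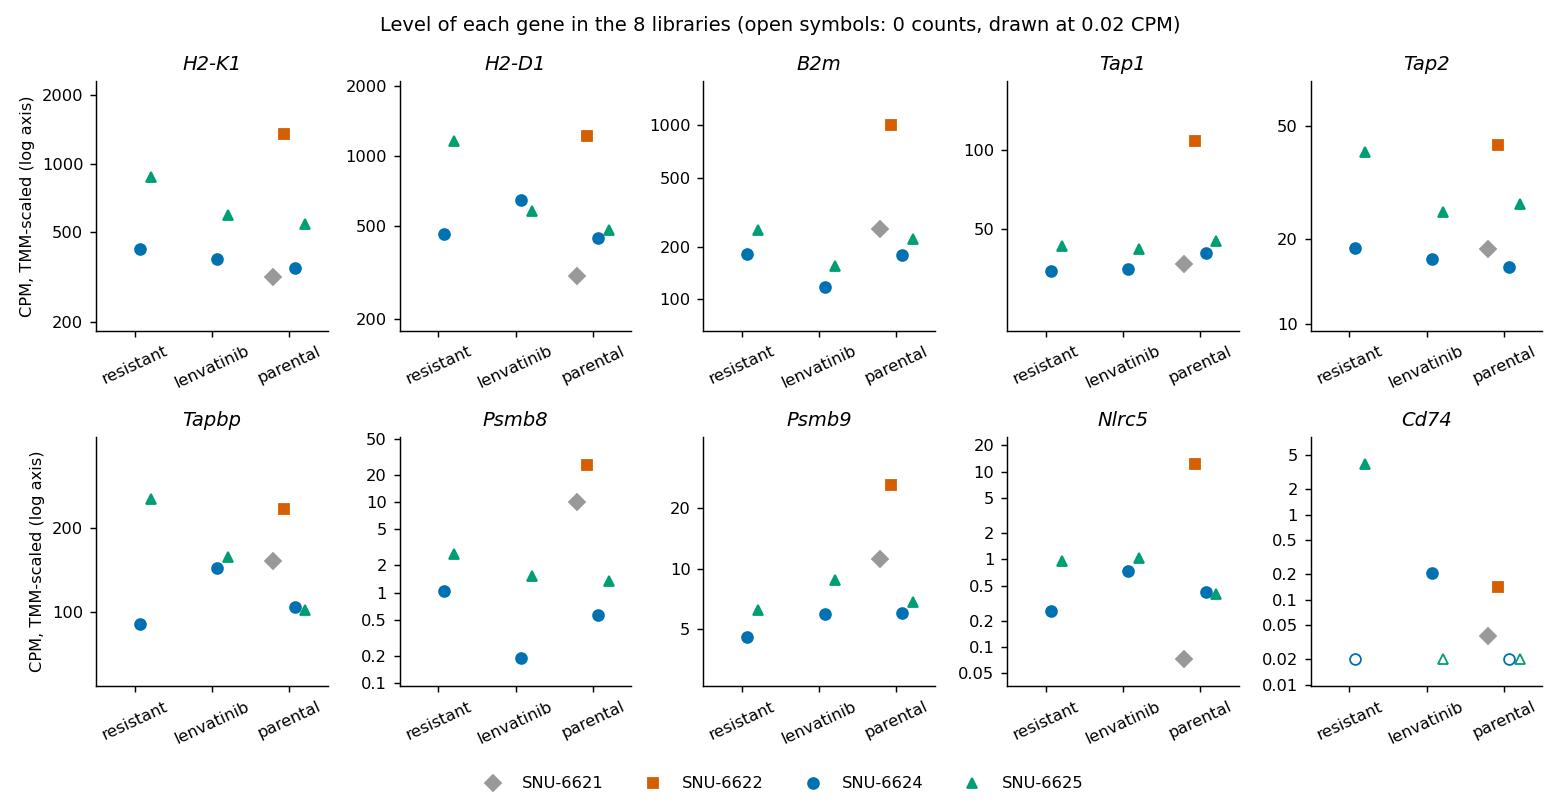
TMM-scaled CPM (log axis, a different range in each panel) of the 10 genes in the 8 libraries, by group from left to right: resistant, lenvatinib and parental. Each point is 1 library and its colour and shape give the line. Parental SNU-6622 is the highest parental point in each panel, and resistant SNU-6625 is the highest of the other libraries for H2-K1 (872 CPM), H2-D1 (1156 CPM), Tap2 (40.3 CPM), Tapbp (255 CPM) and Cd74 (3.98 CPM).

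Further class I heavy chain genes, of the H2-Q, H2-T and H2-M families and beyond, were set beside these. Of 18 tested in lenvatinib against parental, 0 were called higher and 2 lower, where 5.78% of all genes were called in either direction. Of the 18, 13 were lower in both lines, as were 41.9% of all genes. H2-T23, which encodes Qa-1, a ligand of the NKG2A receptor of NK cells, had 20.9 and 40.4 CPM in lenvatinib SNU-6624 and SNU-6625, against 87.5 and 135.3 CPM in parental SNU-6624 and SNU-6625 (log2 fold change -1.90, SE 0.17, adjusted p = 0.0323 by edgeR). H2-Q2 had 27.9 and 54.1 CPM in lenvatinib and 50.4 and 112.3 CPM in parental libraries (log2 fold change -0.96, SE 0.16, adjusted p = 0.0469 by edgeR). The median log2 fold change of the 18 was -1.01, against -0.01 over all genes tested. In resistant against lenvatinib 2 of the 18 were called, both higher, where 6.23% of all genes were called in either direction. H2-T23 had 63.5 and 94.5 CPM in resistant SNU-6624 and SNU-6625 (log2 fold change 1.41, SE 0.17, adjusted p = 0.0338 by edgeR), and H2-Q4 had 32.1 and 79.7 CPM in resistant and 11.1 and 20.9 CPM in lenvatinib libraries (log2 fold change 1.75, SE 0.28, adjusted p = 0.045 by edgeR). None of the 18 was called in resistant against parental. Without line as a term none of these 4 calls held, with edgeR adjusted p = 0.0624 for H2-T23 and 0.274 for H2-Q2 in lenvatinib against parental, and 0.105 for H2-T23 and 0.0967 for H2-Q4 in resistant against lenvatinib.

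Since near-identical heavy chain genes may share reads, and how the authors' counting split them is not given in the sources used here, the heavy chains were also summed. Among the counts of 16 heavy chain genes, H2-K1 and H2-D1 held 82.9% and 86.4% in resistant, 89.9% and 86.1% in lenvatinib and 77.2% and 71.8% in parental SNU-6624 and SNU-6625, with 95% Wilson intervals at most 0.76 percentage points wide. The other 14 genes summed to 115.6 and 189.6 CPM in lenvatinib and 233.5 and 402.7 CPM in parental libraries. All 16 together came to 1146 and 1366 CPM in lenvatinib libraries, against 1026 and 1428 CPM in parental libraries, so the total lay above the parental one in SNU-6624 and below it in SNU-6625.

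**Figure D3:**
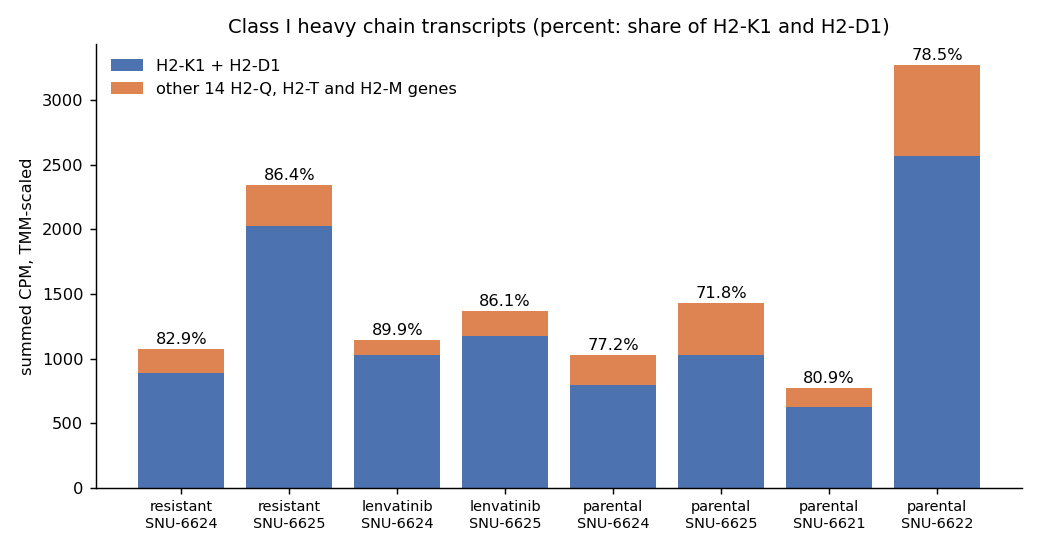
Summed TMM-scaled CPM of 16 class I heavy chain genes in each library, split into H2-K1 with H2-D1 and the other 14. The percentage above each bar is the share of H2-K1 and H2-D1 in the counts, from 71.8% in parental SNU-6625 to 89.9% in lenvatinib SNU-6624. Resistant libraries stand left, lenvatinib libraries next and parental libraries right.

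Resistant against parental gave 0 called genes among the 10 and 0 (0%) among all 17038 genes by edgeR, with 15.9% of all genes at an unadjusted p under 0.05 (2715 genes). DESeq2 called 1104 genes and limma-voom 0. Among the 10, 0 passed an unadjusted p under 0.05 by edgeR and 0 were called by DESeq2 or limma-voom. The larger ratios were in SNU-6625. There, H2-D1, Tapbp, Nlrc5 and Cd74 were over 2-fold higher in the resistant library, 4 of 10 against 12.5% of all genes, whereas in SNU-6624 this held for 0 of 10 against 5.02%. The median log2 ratio of the 10 genes was 0.81 in SNU-6625 and 0.01 in SNU-6624, against -0.03 and 0 over all genes. Whether the lines differ could not be tested, since 1 library per line and group leaves no residual degrees of freedom.

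H2-D1 had 466 and 1156 CPM in resistant SNU-6624 and SNU-6625, against 444 and 481 CPM in parental SNU-6624 and SNU-6625, 1.05-fold and 2.4-fold higher. H2-K1 had 422 and 872 CPM in resistant and 349 and 544 CPM in parental libraries, 1.21-fold and 1.6-fold higher, with a fitted log2 fold change of 0.48 (SE 0.22, adjusted p = 0.36 by edgeR). B2m, at 182.5 and 249 CPM in resistant and 179.8 and 222 CPM in parental libraries, had a log2 fold change of 0.09 (SE 0.16). H2-D1 in resistant SNU-6625 was thus close to that in parental SNU-6622 (1223 CPM), where B2m was at 1006 CPM, and the ratio of B2m to H2-K1 counts was 0.285 in resistant SNU-6625 and 0.748 in parental SNU-6622.

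Tapbp had 90.6 and 255 CPM in resistant SNU-6624 and SNU-6625, against 103.5 and 101.3 CPM in parental SNU-6624 and SNU-6625, so that resistant SNU-6624 lay below and resistant SNU-6625 above both parental libraries. Tap2 had 18.6 and 40.3 CPM in resistant and 15.9 and 26.6 CPM in parental libraries, and Tap1 34.5 and 43.0 CPM in resistant and 40.3 and 45.0 CPM in parental libraries. Psmb8 had 53 and 145 counts in resistant and 34 and 67 counts in parental libraries, a log2 fold change of 0.93 (SE 0.59, adjusted p = 0.461 by edgeR), and Psmb9 4.57 and 6.25 CPM in resistant and 6.02 and 6.81 CPM in parental libraries. Leaving out resistant SNU-6624 brought H2-K1, H2-D1, Tap2, Tapbp and Cd74 under an edgeR adjusted p of 0.05, for SNU-6625 on the resistant side alone, and leaving out resistant SNU-6625 moved the log2 fold change of H2-D1 to 0.00 and that of Tapbp to -0.15.

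Cd74 had 214 counts in resistant SNU-6625 and 0 in resistant SNU-6624, lenvatinib SNU-6625, parental SNU-6624 and parental SNU-6625. With the 0 set to the floor of 3 counts per library, scaled by TMM as the levels are, the level in resistant SNU-6625 was at least 65.8-fold higher than in parental SNU-6625 and at least 78.7-fold higher than in lenvatinib SNU-6625. The class II genes proper did not accompany it. H2-Aa, H2-Ab1, H2-Eb2, H2-Oa and H2-Ob had 0 counts in all 8 libraries, and H2-Eb1 and the class II transactivator Ciita had 0 counts in the 6 libraries of the 2 tested lines and at most 0.129 and 0.425 CPM elsewhere. Of the leukocyte markers, Ptprc was at 0 in resistant SNU-6625, while S100a9, S100a8 and Csf1r had 315, 104 and 73 counts there (5.86, 1.93 and 1.36 CPM), the highest of the 8 libraries for each, against 11, 0 and 26 counts in parental SNU-6625. The summed leukocyte markers without Ly6g were also highest there, at 9.412 CPM. Ly6g went the other way, at 14.23 CPM in resistant SNU-6625 against 72.22 CPM in parental SNU-6625. With Ly6g the markers summed to 23.64 CPM against 73.2 CPM, and 18 of the 26 had 0 counts in every library. The part of these markers in the level of Cd74 was not tested. In SNU-6625, 12.5% of all genes were over 2-fold higher in the resistant than in the parental library. Among these were the non-canonical NF-kB genes Relb and Nfkb2, at 155.4 and 302.8 CPM against 27.3 and 65.5 CPM. Ctsl, a lysosomal protease, was at 873 CPM against 80.1 CPM. It was also at 255.4 and 218.9 CPM in lenvatinib SNU-6624 and SNU-6625, against 67.5 and 80.1 CPM in parental libraries, while Cd74 had 12 and 0 counts in these lenvatinib libraries. The part of these genes in the level of Cd74 was not tested. H2-DMa, a chain of the H2-DM dimer that loads class II molecules, was at 18.3 CPM in resistant SNU-6625 against 7.06 CPM in parental SNU-6625. The partner chains H2-DMb1 and H2-DMb2 were lower there, at 1.19 and 0.112 CPM against 2.60 and 0.242 CPM in parental SNU-6625.

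In resistant against lenvatinib, B2m again had the lowest p of the 10 genes. B2m had 182.5 and 249 CPM in resistant SNU-6624 and SNU-6625, against 117.5 and 155.6 CPM in lenvatinib SNU-6624 and SNU-6625, 55.3% and 59.8% higher within the lines and without overlap between groups, as for 27.8% of all genes. The log2 fold change was 0.66 (SE 0.16), with an unadjusted p of 0.0103 and an adjusted p of 0.0765 by edgeR. At the unadjusted threshold 30.4% of all genes passed. None of the 10 was called by edgeR or limma-voom, where 6.23% of all genes were by edgeR, and 1 of the 10, B2m, passed the unadjusted threshold. DESeq2 called B2m (adjusted p = 0.00541), and over 16 alternatives, 3 of which called it, its adjusted p ranged from 0.00541 to 0.468. The lenvatinib libraries enter this comparison and that against parental, so the 2 results for B2m are not independent. Without resistant SNU-6624, edgeR called H2-K1, H2-D1, B2m, Tap2, Tapbp and Cd74, all higher, and without resistant SNU-6625 it called B2m, higher, and Tapbp, lower (log2 fold change -0.71, adjusted p = 0.015). Without either lenvatinib library 0 of all genes were called.

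Psmb8 had 1.04 and 2.70 CPM in resistant and 0.190 and 1.52 CPM in lenvatinib SNU-6624 and SNU-6625, 5.5-fold and 1.78-fold higher, with a log2 fold change of 1.496 (SE 0.61, adjusted p = 0.187 by edgeR). Psmb9, at 4.57 and 6.25 CPM in resistant and 5.94 and 8.80 CPM in lenvatinib libraries, was lower in both lines, so the paired immunoproteasome subunits took opposite directions, neither called. H2-D1 and Tapbp took opposite signs in the 2 lines. H2-D1 was 0.718-fold in resistant SNU-6624 and 1.98-fold in resistant SNU-6625 relative to lenvatinib, and Tapbp 0.631-fold and 1.61-fold. Nlrc5 had 13 and 52 counts in resistant and 43 and 62 counts in lenvatinib libraries. Tap1 had a log2 fold change of 0.01 (SE 0.14), and Tap2 and H2-K1 had log2 fold changes of 0.42 (SE 0.21) and 0.36 (SE 0.22). The median over the 10 genes was 0.33, against 0.02 over all genes.

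**Figure D4:**
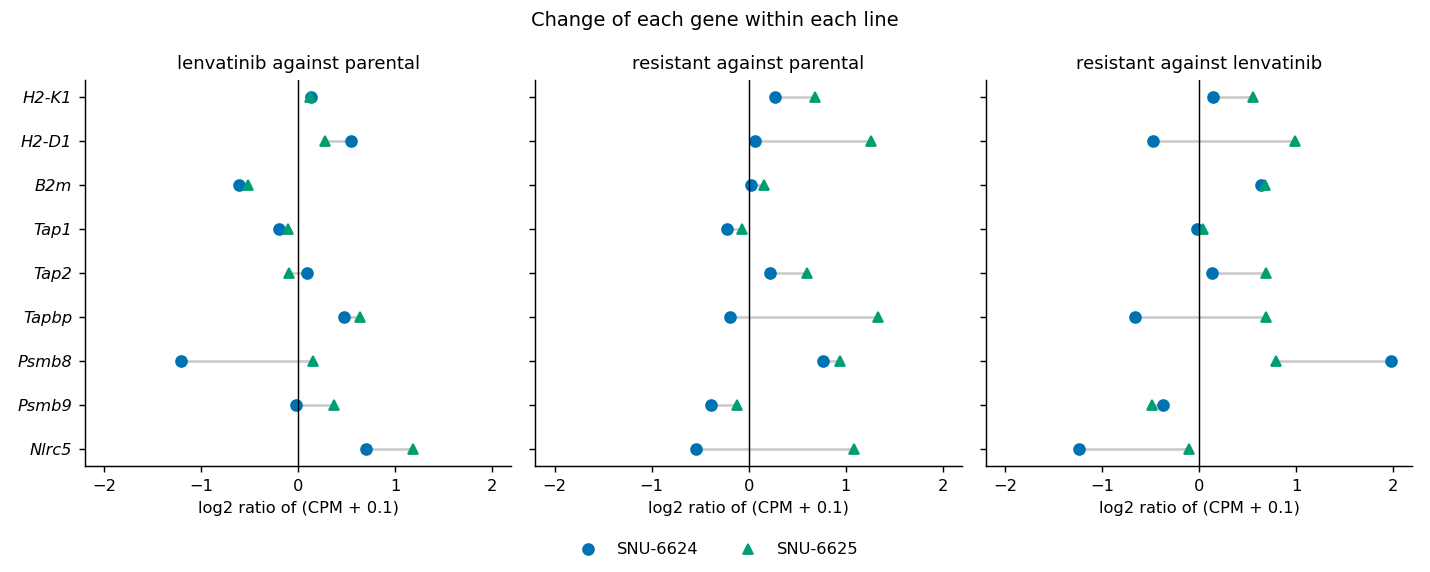
Log2 ratio of (CPM + 0.1) within each line for 9 class I pathway genes in the 3 comparisons, with SNU-6624 as circles and SNU-6625 as triangles and a grey bar joining the lines. The 2 lines lie close together for B2m in each panel, and apart for H2-D1, Tapbp and Nlrc5 in both panels that involve resistant libraries. The comparisons share libraries, so the panels are not independent.

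Outside the set, 1 of 15 loading and peptide supply genes was called in resistant against lenvatinib, where 6.23% of all genes were. Psme1, a subunit of the interferon-inducible PA28 cap of the proteasome, had 68.7 and 63.4 CPM in resistant, 24.3 and 32.9 CPM in lenvatinib and 50.9 and 57.2 CPM in parental SNU-6624 and SNU-6625. It rose in resistant against lenvatinib (log2 fold change 1.22, SE 0.19, adjusted p = 0.0432 by edgeR), and was at -0.93 (SE 0.19, adjusted p = 0.0628 by edgeR) in lenvatinib against parental. Psme3 encodes a related cap of the nuclear proteasome, and the ratio of Psme1 to Psme3 counts was 0.419 and 0.416 in resistant, 0.131 and 0.1945 in lenvatinib and 0.365 and 0.48 in parental SNU-6624 and SNU-6625. Psmb10 over Psmb7 was 0.0819 and 0.0734 in resistant, 0.0278 and 0.0268 in lenvatinib and 0.0595 and 0.0835 in parental libraries, and the fitted changes of Psmb10 were not called (1.70, SE 0.31, adjusted p = 0.0519 by edgeR against lenvatinib). Of the 15 loading and peptide supply genes, 0 were called in lenvatinib against parental, 0 in resistant against parental and 1, Psme1, in resistant against lenvatinib. Of the 14 constitutive core genes, 1 was called in lenvatinib against parental, where 5.78% of all genes were. This was Psmb3, which rose (log2 fold change 0.89, SE 0.13, adjusted p = 0.0443 by edgeR). In both lines 12 of the 14 were higher, as were 41.5% of all genes tested.

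**Figure D5:**
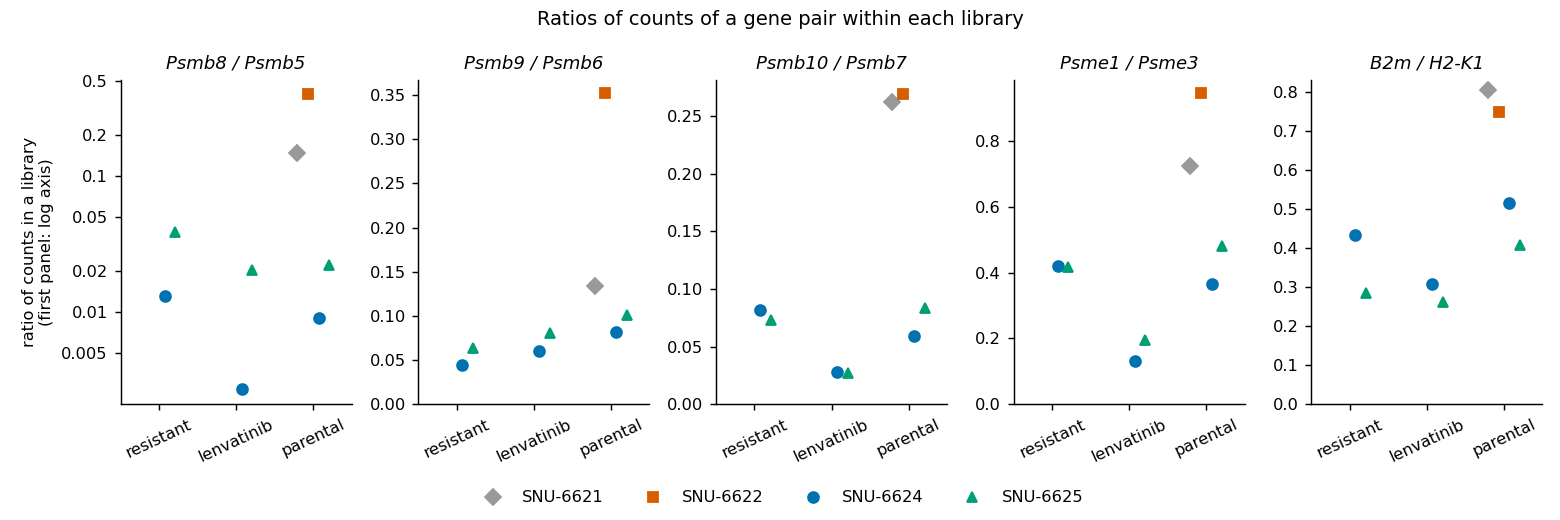
Ratios of the counts of 2 genes within each library, not corrected for gene length, by group from left to right: resistant, lenvatinib and parental. The first panel has a log axis and the others start at 0. Both lenvatinib points lie below both resistant points for Psmb10 over Psmb7 (0.0268 and 0.0278 against 0.0734 and 0.0819) and for Psme1 over Psme3, while parental SNU-6621 and SNU-6622 stand above the other lines in all 5 panels.

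Among regulators of MHC genes, Nfya, a subunit of the Y box factor, rose in lenvatinib against parental (log2 fold change 0.81, SE 0.14, adjusted p = 0.0497 by edgeR). In resistant against lenvatinib, Irf1 (1.58, SE 0.24, adjusted p = 0.0423 by edgeR) and Nfyc (1.33, SE 0.17, adjusted p = 0.0365) rose and Nfya fell (-0.91, SE 0.14, adjusted p = 0.0426) on the log2 scale. Irf1, which binds interferon response motifs, had 64.2 and 123.2 CPM in resistant, 26.5 and 34.3 CPM in lenvatinib and 58.5 and 64.4 CPM in parental SNU-6624 and SNU-6625. Without line as a term Irf1 was not called (edgeR adjusted p = 0.0551). Of all genes tested, 5.78% were called in lenvatinib against parental and 6.23% in resistant against lenvatinib. None of the 21 regulators tested was called in resistant against parental.

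Among interferon-induced genes outside the set, of 32 above the filter, all 32 were highest in parental SNU-6622, as were 20.6% of all genes. At least 2-fold over each other parental line were 31, against 1.62% of all genes. Their summed level was 4232 CPM in SNU-6622 against 404.8 to 507.1 CPM. In lenvatinib against parental, 0 of 30 tested were called higher and 3 lower (Irf7, Oas2 and Oas1a), where 5.78% of all genes were called in either direction. Of the 30, 23 were lower in both lines, as were 41.9% of all genes, and the median log2 fold change was -1.03. In resistant against lenvatinib 1, Oas2, was called higher and 0 lower, where 6.23% of all genes were called. Of the loading and peptide supply genes outside the set 0 of 15, and of the constitutive core genes 0 of 14, passed this 2-fold rule in SNU-6622. With a share of 1.62% over all genes, counts of 0 in lists of this size do not set them apart from other genes. Of 13 interferon receptor and signalling genes, 1 was called in lenvatinib against parental, where 5.78% of all genes were. Likewise 1 was called in resistant against lenvatinib, where 6.23% of all genes were. Socs3 fell in the first comparison (log2 fold change -1.17, SE 0.16, adjusted p = 0.0422 by edgeR). Ifngr1 rose in the second (1.72, SE 0.27, adjusted p = 0.0432 by edgeR). Without line as a term Socs3 and Oas1a were not called in lenvatinib against parental (edgeR adjusted p = 0.123 and 0.13).

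In the class II pathway list, 6 of 15 genes passed the filter. In lenvatinib against parental 2 of the 6 were called, where 5.78% of all genes were, and both act in lysosomes more widely. Ifi30, a lysosomal thiol reductase, rose (log2 fold change 1.51, SE 0.17, adjusted p = 0.0371 by edgeR), with 82.5 and 77.8 CPM in lenvatinib SNU-6624 and SNU-6625 and 28.6 and 27.7 CPM in parental SNU-6624 and SNU-6625. Lgmn, a lysosomal protease, rose as well (1.11, SE 0.15, adjusted p = 0.041 by edgeR). Ifi30 fell in resistant against lenvatinib (log2 fold change -1.21, SE 0.17, adjusted p = 0.04 by edgeR). Of 16 ligands of T and NK cell receptors tested, Vtcn1 (B7-H4) and Cd276 (B7-H3), both of the B7 family, fell in lenvatinib against parental and rose in resistant against lenvatinib. These comparisons called 5.78% and 6.23% of all genes. Vtcn1 had 56.0 and 42.6 CPM in resistant, 3.90 and 2.14 CPM in lenvatinib and 30.6 and 41.4 CPM in parental SNU-6624 and SNU-6625.

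The genes whose level over the 8 libraries was most like the mean of the class I pathway genes were LOC108167347 (Pearson r = 0.984), Gm7609 (0.976), Trim30d (0.976), Trim30a (0.973), Gm38510 (0.966), Cmpk2 (0.965), Gm7582 (0.961) and Usp18 (0.955), of 10897 genes ranked. These values rest largely on parental SNU-6622, and without it they were 0.884, 0.87, 0.925, 0.888, 0.873, 0.859, 0.935 and 0.767 over 7 libraries. All 8 genes were picked with SNU-6622 included and had their highest level there. Nlrc5 entered the mean only through its 12.13 CPM in that library. The values over 7 libraries are therefore no check apart from the selection. Between the 9 pathway genes themselves, the 36 pairwise correlations of log2 levels ran from 0.312 to 0.959 with a median of 0.744, and without parental SNU-6622 from -0.424 to 0.955 with a median of 0.378. Libraries of 1 line share their source, so these values describe the 8 libraries and carry no test.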

How the data were processed

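The deposited files hold raw counts per gene for 8 libraries, 1 file each, by NCBI gene identifier, per the file headers. Total RNA was made into stranded poly(A) libraries, per the labels' protocols. Build mm10, HISAT2 2.1.0, StringTie 2.1.3b, Bowtie2 2.3.4.1, Trimmomatic 0.38 and FastQC 0.11.7 are named in the submitters' processing notes. Neither the counting step nor its strand setting is given in the sources used here.

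The 6 libraries of SNU-6624 and SNU-6625 were fitted with edgeR 4.0.16 in R 4.3.3 (TMM scaling, filterByExpr, quasi-likelihood F test, group and line as terms), with Benjamini-Hochberg adjustment over all 17038 genes that passed the filter and calls under 0.05. The 3 groups shared 1 estimate of the spread (2 residual degrees of freedom). SE is the log2 fold change over the square root of F. Line was a term because the same-numbered libraries come from the same line: their deviations from the group means correlated at 0.281 (parental and resistant), 0.591 (parental and lenvatinib) and 0.274 (resistant and lenvatinib). Printed CPM are TMM-scaled over all 8 libraries, and ratios within a line use log2(CPM + 0.1). Parental lines, with 1 library each, were compared by value and by Dixon's ratio over the 4 lines. The edgeR step, for lenvatinib against parental, was tested on simulated counts with the same spread for every gene and no difference between lines. Alternatives were DESeq2 1.42.0, limma-voom (limma 3.58.1), other scaling and filters, a fit without line, all 8 or only 4 libraries, genes above 1% of counts left out, and each library left out in turn.

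Exon lengths come from GENCODE vM21 and positions and promoters from RefSeq GRCm38.p6, matched by gene identifier for 45679 genes. All 10 members passed the filter in all comparisons. The members, lists and rule for named genes were chosen with earlier results of these data known. The rule names all 10 members, called members of each other list (up to 4 per comparison), up to 4 of the highest in each list, 12 paired genes (such as Psmb5 and Irf1) and the 8 genes most like the members among those reaching 10 CPM, on log2(CPM + 1). Not all of these are described, and 1 regulator is not reported here. Relb, Nfkb2, Ctsl, the H2-DM genes, S100a9, S100a8 and Csf1r were named after their values were seen. No multi-biotics library was analysed here.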

Additional observations from a re-analysis of the deposited data

Results flagged for a closer look

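In the 4 parental lines, the level in SNU-6622 stood apart from the other 3 by Dixon's ratio, the gap to the nearest line over the whole range, for 3 of the 10 genes. B2m was at 1006 CPM in SNU-6622 (ratio 0.91), Tap1 at 108.8 CPM (ratio 0.882) and Nlrc5 at 12.13 CPM (ratio 0.971), each above Dixon's 95% critical value for 4 samples. Chance flags about 1 in 20 groups, and the 10 genes were read in the same 4 libraries, so these are not separate events.

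In 3 cases the 2 lines moved in opposite directions by more than 0.5 on the log2 scale. Nlrc5 in resistant against parental was at 1.085 in SNU-6625 and -0.544 in SNU-6624, on 52 and 13 counts in the resistant libraries. Tapbp in resistant against lenvatinib was at 0.688 in SNU-6625 and -0.664 in SNU-6624. Cd74 in resistant against lenvatinib was at 5.351 in SNU-6625 and -1.619 in SNU-6624, on 214 and 0 counts in the resistant libraries and 0 and 12 counts in the lenvatinib libraries, values that depend on the 0.1 CPM added. The differences between the lines were not tested, since 1 library per line and group leaves no residual spread.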

How the results depend on the processing

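Over the other alternatives, 276 of 292 fold changes of the 10 genes kept their direction and their side of the threshold, 11 changed sign and 5 were newly called. Where 1 library was left out, 140 of 177 did, 18 changed sign and 19 were newly called. The count of called genes was less stable. For lenvatinib against parental it was 985, and 174 with no filter on low counts, 1697 with limma-voom, 3648 with DESeq2 (1 of the 10, B2m) and 7942 with only the 4 libraries compared (3 of the 10: H2-D1, B2m and Tapbp). For resistant against lenvatinib it was 1061, and 234 with only the 4 libraries, 324 with no filter and 3552 with DESeq2 (1 of the 10, B2m). For resistant against parental it was 0, and 1104 with DESeq2 (0 of the 10). The fit without line, the only one without the replicate block, gave 1053, 0 and 1119 called genes for lenvatinib against parental, resistant against parental and resistant against lenvatinib, and changed no call among the 10, while 10 of 15 and 13 of 16 called genes of the other lists were still called in lenvatinib against parental and resistant against lenvatinib. With no filter on low counts 2 of 15 and 4 of 16 were, with only the 4 libraries compared 15 of 15 and 2 of 16, and without either lenvatinib library 0, with no change of sign in any alternative. Scaling by library totals alone moved the share of higher calls to 43.4% in lenvatinib against parental (29.3% with TMM) and 47.3% in resistant against lenvatinib (66.5% with TMM), and the median of all genes to -0.14 in the second. The cause was not tested.

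With 1 library left out, counts ran from 0 to 7798 genes and 0 to 4 of the 10 for lenvatinib against parental, 0 to 5819 and 0 to 5 for resistant against parental, and 0 to 6286 and 0 to 6 for resistant against lenvatinib. The highest count in each came without resistant SNU-6624 and the count was 0 in lenvatinib against parental without either parental or either lenvatinib library.

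Tap2 in lenvatinib against parental, 0.00 in the fit described, was at -0.025 (no replicate block), -0.022 (only 4 libraries), -0.027 (RLE scaling and DESeq2), -0.014 (no filter), -0.02 (at least 1 CPM in 2 libraries), -0.015 (genes above 1% left out) and -0.021 (limma-voom). In resistant against lenvatinib, Tap1 was at -0.16 and Tapbp at -0.11 with library totals alone, and Tapbp at -0.025 with limma-voom. Leaving out 1 library gave -0.05 to 0.79 for H2-D1, -0.19 to 0.15 for Tap2 and -1.57 to 0.14 for Psmb8 in lenvatinib against parental. It gave 0.00 to 1.32 for H2-D1, -0.15 to 1.28 for Tapbp and -0.57 to 1.09 for Nlrc5 in resistant against parental, and -0.41 to 0.93 for H2-D1, -0.049 to 0.071 for Tap1, -0.71 to 0.74 for Tapbp and -1.662 to 0.016 for Nlrc5 in resistant against lenvatinib. Fitted values of Cd74, which rest on libraries at 0 and measure no fold, ran from -1.21 to 14.80 and from -5.30 to 10.70 in lenvatinib against parental and resistant against lenvatinib. Depth limits Nlrc5, Psmb8 and Cd74 most, with fewer than 100 counts in some libraries.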
